A study of Brassica carinata x Brassica rapa with 9 samples.

Results

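Genes of the meiotic chromosome axis were followed in the anthers, ovules and leaves of an allohexaploid Brassica made by crossing. The genes are the copies that the study assigned by Arabidopsis orthology to ASY1 (Bra004222 on the A-genome and BniB009412 on the B-genome) and to ASY3 (BniB041399 on the B-genome). They are 3 of the 100804 genes in the data, taken by identifier, and other copies of ASY1 and ASY3 were not analysed here. The study picked these genes from the present libraries because they were higher in both reproductive tissues than in Leaf. Their differences from Leaf are therefore given as descriptions with no test, while the comparison of Anther with Ovule and the balance between copies were not used for the choice.

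RNA-Seq was performed on 3 tissues of 1 genotype, AABBCC, with 3 libraries each. The male organ (Anther) and the female organ (Ovule) were sampled over a span of stages that starts with meiosis and ends once the gametophytes are mature, and Leaf, from young leaves, served as the control without meiosis. All groups carry 3 subgenomes, A from B. rapa and both B and C from B. carinata, and the labels and the study differ on which parent was the female. The study calls the 3 libraries of a tissue biological replicates, without saying which plants they came from, so p-values measure the spread between these libraries. For limma this spread was pooled over the 3 tissues, Leaf included. Levels are deposited FPKM, in which reads are scaled by the length of the gene and by the reads of the library. Reads on genes numbered 15080514 to 15529936 in Anther, 15113765 to 15516175 in Ovule and 8675687 to 10154192 in Leaf. Between Leaf libraries the mean chi-square per gene was 1.65 to 1.99, over genes whose reads in the compared libraries summed to 1000 or more, where sampling of reads alone gives about 1. Anther replicate 2 stood apart from the other Anther libraries, with a mean chi-square of 174 and 228 against them, and it touches each Anther value given here. The mean chi-square was 59.2 between Anther replicates 1 and 3 and 34.7 to 38.8 between Ovule libraries, all far above Leaf. The 15 copies of the tapetum regulators AMS, MYB80 and TDF1, listed as Anther markers by the study from these libraries, summed to 1592 to 1874 FPKM in Anther, 0.914 to 9.13 FPKM in Ovule and 0.431 to 0.869 FPKM in Leaf. Bulk tissue of many stages was sequenced, so fewer meiotic cells and less RNA per meiotic cell cannot be told apart.

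At the start of meiotic prophase, each pair of sister chromatids is arranged as loops along a protein axis. ASY1 is a HORMA-domain protein of that axis, related to Hop1 of budding yeast, and is needed in Arabidopsis for synapsis and for recombination between homologous chromosomes. ASY3 is a coiled-coil axis protein, related to Red1 of budding yeast, that helps ASY1 to load in Arabidopsis. The axes of homologous chromosomes are later joined by ZYP1, the transverse filament protein of the synaptonemal complex. In polyploids the axis proteins are studied for their part in sorting crossovers between homologous and homoeologous chromosomes.

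The A-genome ASY1 copy Bra004222 was abundant in Anther, low in Ovule and near 0 in Leaf. It stood at 15.4, 57.3 and 22.3 FPKM in Anther replicates 1 to 3, at 0.644, 0.648 and 0.771 FPKM in Ovule and at 0.164, 0.0640 and 0 FPKM in Leaf. Each Anther library was at least 19.9-fold above each Ovule library, and each Ovule library was above each Leaf library. The copy rested on 2603 reads in Anther, 57 in Ovule and 4 in Leaf, with a coding length of 1800 bases, both read back from the FPKM values as the smallest whole reads that fit. Within a library it exceeded 85.7% to 96.9% of all genes in Anther and 36.3% to 37.3% in Ovule.

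Bra004222 rose by 5.11 on the log2(FPKM + 0.1) scale in Anther over Ovule (standard error 0.50, 95% interval 3.98 to 6.23, adjusted p = 4e-05 from limma). The mean was 31.6 ± 22.5 FPKM in Anther and 0.688 ± 0.0724 FPKM in Ovule (SD, n = 3 each), a ratio of 46.0, with 35.3 to 60.7 as the interval from counting of reads alone and 27.4 without Anther replicate 2. Of all 75038 genes tested, 2.30% had a larger difference in that direction. Without Anther replicate 2 the log2 difference was 4.57 (adjusted p = 0.00012 from limma).

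The B-genome ASY1 copy BniB009412 was high in Anther too, but it was also well expressed in Ovule. It stood at 14.9, 39.3 and 17.7 FPKM in Anther, at 6.31, 7.68 and 5.83 FPKM in Ovule and at 0.320, 0.312 and 0.339 FPKM in Leaf. The libraries of the 3 tissues did not overlap, and the lowest Anther library was 1.94-fold above the highest Ovule library. The copy has a coding length of 1848 bases and rested on 2026 reads in Anther, 563 in Ovule and 17 in Leaf. Its level exceeded that of 85.1% to 95.02% of all genes within an Anther library and of 66.8% to 72.4% within an Ovule library.

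BniB009412 rose by 1.72 on the log2(FPKM + 0.1) scale in Anther over Ovule (standard error 0.32, 95% interval 0.99 to 2.45, adjusted p = 0.0021 from limma). Mean levels were 24.0 ± 13.4 FPKM in Anther and 6.61 ± 0.960 FPKM in Ovule (SD, n = 3 each), a ratio of 3.63. The log2 difference was 1.29 without Anther replicate 2 (adjusted p = 0.0015 from limma). Thus 2 of the 3 axis genes were called higher in Anther than in Ovule, with thresholds of 2-fold and an adjusted p of 0.05. So were 14.3% of all genes tested (9.01%, 10.4% and 9.27% without Anther replicate 1, 2 and 3 in turn). The 2 axis genes also had all Anther libraries above all Ovule libraries, as did 23.6% of all genes tested.

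ASY3 did not follow the ASY1 copies between the reproductive tissues. BniB041399 stood at 2.06, 7.20 and 3.17 FPKM in Anther, at 3.17, 3.30 and 3.17 FPKM in Ovule and at 0.125, 0.245 and 0.0443 FPKM in Leaf. The Ovule libraries were nearly alike and lay within the range of the Anther libraries, of which replicate 2 was above all of them, replicate 1 was below, and replicate 3 was level with the lowest. The copy has a coding length of 2355 bases and rested on 446 reads in Anther, 349 in Ovule and 9 in Leaf.

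For BniB041399 the log2 difference of Anther over Ovule was 0.17 (standard error 0.46, adjusted p = 0.80 from limma), with a 95% interval of -0.88 to 1.21, which reaches past a 2-fold increase. Mean levels were 4.14 ± 2.70 FPKM in Anther and 3.22 ± 0.0751 FPKM in Ovule (SD, n = 3 each). The sign rested on 1 library, since the log2 difference was -0.32 without Anther replicate 2 (adjusted p = 0.55 from limma).

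**Figure D1:**
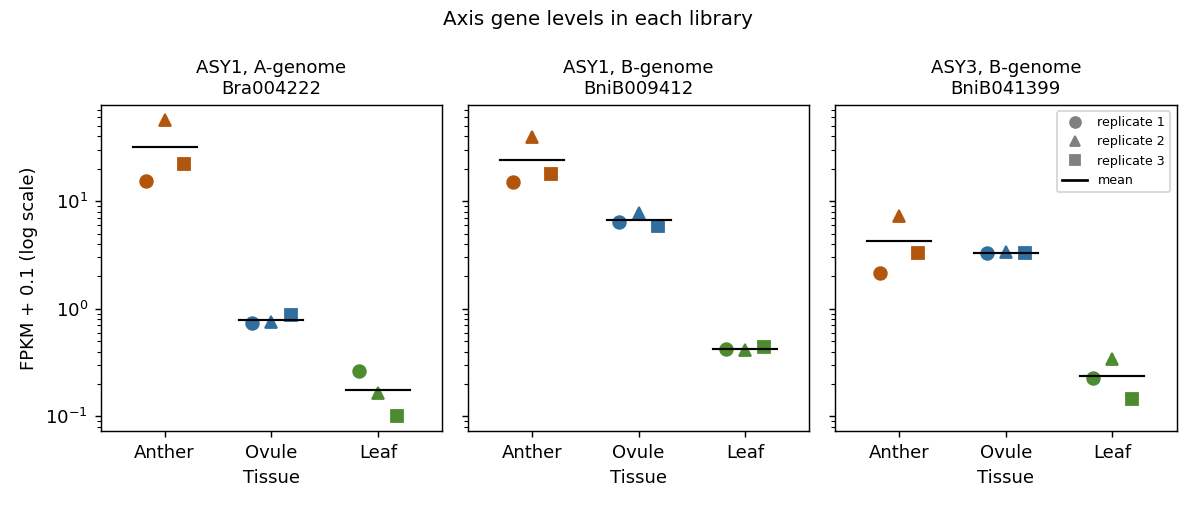
FPKM + 0.1 on a log scale for the ASY1 copies Bra004222 and BniB009412 and for ASY3 BniB041399, with 1 symbol per library and a bar for the mean of the 3 libraries of a tissue. Bra004222 reaches 57.3 FPKM in Anther and stays at or below 0.771 FPKM in Ovule, whereas BniB009412 has 5.83 to 7.68 FPKM in Ovule and ASY3 overlaps between Anther and Ovule.

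The order of the 3 genes differed between tissues. In each Anther library Bra004222 was the highest, followed by BniB009412 and then ASY3, although the ranges of the ASY1 copies over libraries overlapped (15.4 to 57.3 and 14.9 to 39.3 FPKM). In Ovule the order was BniB009412, ASY3 and Bra004222, with no overlap between neighbours. In Leaf BniB009412 was again the highest, while ASY3 and Bra004222 overlapped, at 0.0443 to 0.245 and 0 to 0.164 FPKM.

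The balance of the A- and B-genome ASY1 copies was near parity in Anther and strongly toward the B-genome in Ovule. Bra004222 made up 50.8%, 59.3% and 55.7% of summed ASY1 FPKM in Anther replicates 1 to 3, against 9.26%, 7.78% and 11.7% in Ovule. The counting intervals were 47.4% to 54.3%, 57.4% to 61.2% and 52.8% to 58.6% in Anther, so that replicate 1 did not differ from an equal share beyond counting error and the others did. In Ovule the exact 95% intervals were 5.59% to 14.2%, 4.68% to 12.0% and 7.38% to 17.3%. These intervals cover counting error only. The highest upper limit in Ovule was below the lowest lower limit in Anther.

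The mean A-genome share was 55.3% ± 4.24 in Anther and 9.58% ± 1.97 in Ovule (SD, n = 3 each), a difference of 45.7 percentage points. All Anther libraries lay above all Ovule libraries, by at least 39.2 points (exact permutation, two-sided, p = 0.1, which is the lowest value that 3 against 3 libraries can give, and 0.15 after Benjamini-Hochberg adjustment over 6 comparisons of ratios). As a ratio, the A-genome copy stood at 1.034, 1.46 and 1.26 times the B-genome copy in Anther, and at 0.102, 0.0844 and 0.132 times in Ovule. The geometric mean of this ratio was 11.8-fold higher in Anther. Over all genes, the A-genome held 54.9% to 55.3% of summed A- and B-genome FPKM in Anther and 53.9% to 54.9% in Ovule, so the shift of ASY1 was not seen in the subgenomes as a whole.

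In Leaf the balance could hardly be measured, as the ASY1 copies together had 9, 6 and 6 reads. The A-genome share was 33.9%, 17.0% and 0% in Leaf, with counting intervals that ran up to 70.6%, 64.7% and 46.6%. Summed over libraries, 4 of 21 reads gave a share of 19.5% (exact 95% interval 5.58% to 42.5%). The Anther share was above Leaf by 38.3 points (exact permutation p = 0.1, adjusted 0.15), and the Ovule share differed from Leaf by -7.41 points with overlapping libraries (exact permutation p = 0.7, adjusted 0.70).

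**Figure D2:**
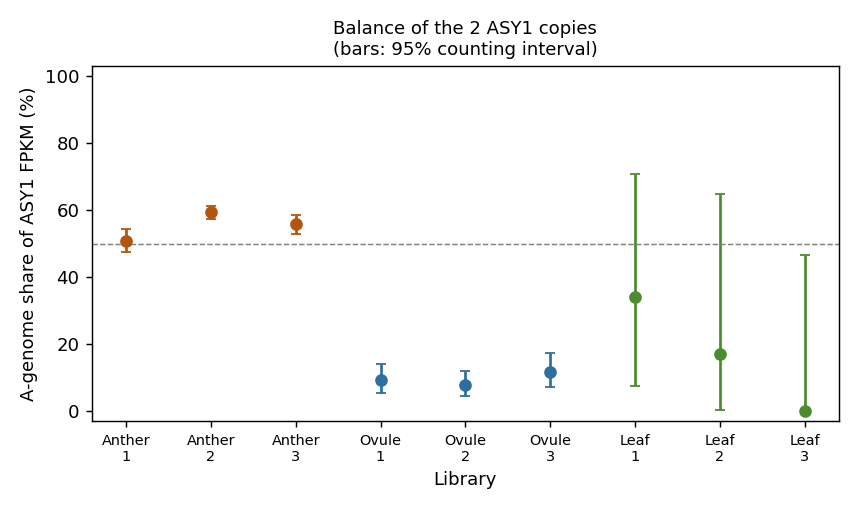
Share of summed ASY1 FPKM from the A-genome copy Bra004222 in each library, in percent, with bars for the 95% counting interval and a dashed line at equal shares. The Anther libraries lie at 50.8% to 59.3%, the Ovule libraries at 7.78% to 11.7%, and the Leaf bars are wide because each Leaf library has 6 to 9 ASY1 reads.

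Anther RNA in the Ovule libraries was considered through the tapetum markers. Their summed FPKM in Ovule replicates 1 to 3 was 0.0515%, 0.143% and 0.515% of the Anther mean, and 10, 5 and 1 of the 15 marker copies were listed at 0. Bra004222 in the same Ovule libraries was at 2.04%, 2.05% and 2.44% of its Anther mean, and BniB009412 at 26.3%, 32.0% and 24.3%. Both the markers and the A-genome share were highest in Ovule replicate 3. Between replicates 1 and 2 they went opposite ways, as the markers were higher in replicate 2 and the share was lower (7.78% against 9.26%). These shares rest on 18, 18 and 21 reads of Bra004222 in Ovule replicates 1 to 3. The part of the markers in the share was not tested. How the authors' counting treated reads that fit more than 1 homoeologous copy is not given in the sources used here, and each copy's level depends on it.

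The same balance could be followed in the other meiotic genes for which the study named exactly 1 A- and 1 B-genome copy. For SPO22 (Bra037488 and BniB000031), a meiosis-specific protein of the class I crossover pathway, the A-genome share was 59.9%, 57.7% and 52.8% in Anther and 34.8%, 48.3% and 32.7% in Ovule. These libraries did not overlap either, with a difference of 18.2 points (exact permutation p = 0.1). The nearest libraries were at 48.3% in Ovule and 52.8% in Anther. Both SPO22 copies together had 66, 64 and 58 reads in Ovule and 130, 469 and 187 in Anther. No counting interval was taken for SPO22, so counting error was not set against this gap. For MSH5 (Bra035777 and BniB043474), a MutS homolog that acts with MSH4 in the same pathway, the mean share was 48.9% ± 3.23 in Anther and 53.4% ± 3.901 in Ovule (SD, n = 3 each, exact permutation p = 0.3). For FANCM (Bra034416 and BniB042826), a helicase that limits crossovers, it was 69.6% ± 4.31 in Anther and 63.6% ± 2.22 in Ovule (SD, n = 3 each, exact permutation p = 0.2). The shift toward the A-genome in Anther was thus 45.7 points for ASY1, 18.2 for SPO22, 5.99 for FANCM and -4.55 for MSH5, and the difference between genes was not tested.

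**Figure D3:**
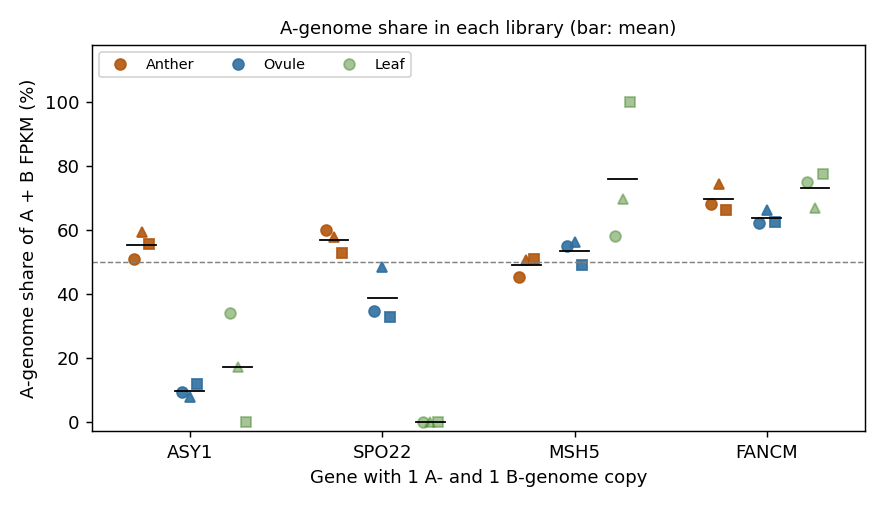
A-genome share of summed A- and B-genome FPKM, in percent, for ASY1, SPO22, MSH5 and FANCM in Anther, Ovule and Leaf, with a point for each library and a bar for the mean. ASY1 has the widest gap between Anther and Ovule of these 4 genes, 45.7 points, and the Leaf points rest on few reads.

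The listed copies of ASY1 and ASY3 were also balanced differently in the reproductive tissues. The ASY1 copies together came to 30.3, 96.6 and 40.0 FPKM in Anther, to 6.95, 8.33 and 6.602 FPKM in Ovule and to 0.484, 0.376 and 0.339 FPKM in Leaf. Summed ASY1 was thus 14.7, 13.4 and 12.6 times the level of ASY3 BniB041399 in Anther, and 2.19, 2.52 and 2.08 times in Ovule. The ratio sets A- and B-genome copies of ASY1 against a B-genome copy of ASY3, without any other copies of either gene. Within Anther this ratio varied by 1.162-fold, while Bra004222 varied by 3.72-fold, BniB009412 by 2.64-fold and BniB041399 by 3.49-fold between the highest and the lowest library.

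The log2 ratio of ASY3 to summed ASY1 averaged -3.76 ± 0.11 in Anther and -1.17 ± 0.14 in Ovule (SD, n = 3 each). The difference was -2.59, with no overlap between tissues (exact permutation p = 0.1, adjusted 0.15). Against Leaf, where 1 to 5 reads of ASY3 were counted per library, the log2 ratio differed by -1.93 in Anther (exact permutation p = 0.1, adjusted 0.15) and differed by 0.66 in Ovule (exact permutation p = 0.4, adjusted 0.48). Single Leaf libraries moved these values, to -1.32 and 1.27 without Leaf replicate 2 and to -2.48 and 0.11 without Leaf replicate 3. With the B-genome ASY1 copy alone as the partner, the difference between Anther and Ovule was -1.57, so it was smaller but of the same sign.

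**Figure D4:**
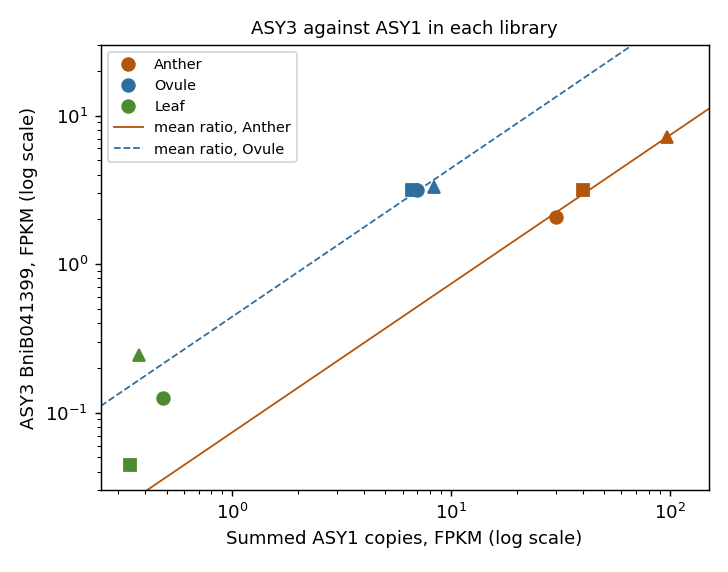
ASY3 BniB041399 against the summed ASY1 copies, both in FPKM on log scales, with 1 point per library (circle, triangle and square for replicates 1 to 3) and lines at the mean ratio of Anther and of Ovule. The Anther libraries lie along a line where the summed ASY1 copies are 12.6 to 14.7 times BniB041399. The Ovule libraries lie along one of 2.08 to 2.52 times.

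Compared with Leaf, all 3 axis genes were higher in both reproductive tissues, which is the pattern they were chosen for. Mean Bra004222 was 416-fold higher in Anther than in Leaf (counting interval 157 to 1480) and 9.05-fold higher in Ovule than in Leaf (3.25 to 33.4), with 4 reads in Leaf. Without Leaf replicate 1 these ratios were 989 and 21.5, and without Anther replicate 2 the ratio of Anther over Leaf was 248. For BniB009412 the ratio of Anther over Leaf was 74.1, or 50.4 without Anther replicate 2. Its ratio of Ovule over Leaf was 20.4, or 18.8 without Ovule replicate 2. These were the largest moves of each with a single library left out. For ASY3 BniB041399 the ratio of Anther over Leaf was 29.99, or 18.9 without Anther replicate 2 and 48.8 without Leaf replicate 2. Its ratio of Ovule over Leaf was 23.3, or 37.9 without Leaf replicate 2. On the log2(FPKM + 0.1) scale, the differences of Anther over Leaf were 7.38, 5.69 and 4.06 for Bra004222, BniB009412 and BniB041399, and those of Ovule over Leaf were 2.27, 3.98 and 3.89. Both comparisons share the Leaf libraries. The reproductive libraries of all 3 genes lay above Leaf, as for 52.7% of all genes tested in Anther and 53.3% in Ovule, and nothing is read from this, since the genes were chosen for it. The median of all genes tested was 0.66 in both comparisons, and -0.11 for Anther over Ovule.

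The other 34 meiotic genes of the study were set beside the axis genes for the comparison of Anther with Ovule. All 3 copies of ZYP1a, the synaptonemal complex protein, were higher in Anther, with log2 differences of 3.55 for Bol027500, 3.31 for Bra003654 and 2.74 for Bra035016 (adjusted p = 0.00072, 0.00016 and 0.00087 from limma). Among the class I crossover genes, 11 of 14 were higher in Anther and none was lower. None of the 7 genes of double-strand break formation was called by limma in either direction, and for 1 of them, the SPO11-1 copy BniB034973, the unadjusted 95% interval stayed above 0 (log2 difference 1.21, interval 0.0051 to 2.41). Of the 10 genes that limit crossovers, 2 were lower in Anther, both of them copies of the helicase gene RECQ4A. Its remaining listed copy, Bra031741, was level between the tissues (log2 difference 0.0048, adjusted p = 0.99 from limma). The RMI1 copy BniB045608 was not called, although its Anther libraries lay below all Ovule libraries (log2 difference -0.55, adjusted p = 0.21 from limma). The 3 copies of FANCM in the same list were not called, although their Anther libraries lay above all Ovule libraries. Their log2 differences, all below 2-fold, were 0.78 for Bra034416, 0.77 for Bol031970 and 0.38 for BniB042826 (adjusted p = 0.053, 0.048 and 0.29 from limma). Bol031970 thus missed the call on the fold threshold alone. In the same order, the unadjusted 95% intervals were 0.12 to 1.43, 0.14 to 1.41 and -0.24 to 1.00. In all, 14 of the 34 genes were higher in Anther and 2 were lower, beside 14.3% in each direction among all genes tested, with a median log2 difference of 0.87 against -0.11 for all genes. These lists were chosen by the study on the present libraries. Ranked by log2 difference among the 37 meiotic genes, Bra004222 was the first, BniB009412 the 14th and BniB041399 the 28th.

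**Figure D5:**
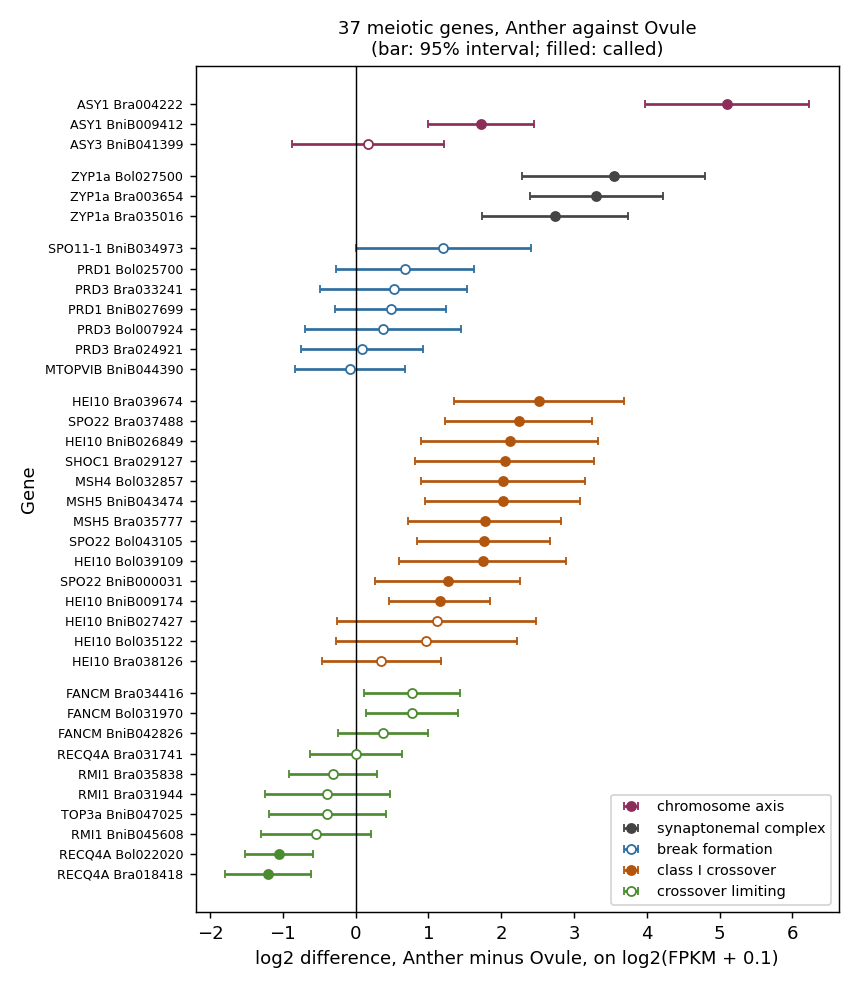
Log2 difference of Anther minus Ovule on log2(FPKM + 0.1) for the 37 meiotic genes of the study, grouped by role, with bars for the 95% interval of limma and filled points for called genes. ASY1 Bra004222 has the largest value of these genes, 5.11, whereas ASY3 BniB041399 lies near 0, at 0.17.

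Anther replicate 2 held the highest Anther value for each of the axis genes. Its level was 2.41 to 3.04 times the mean of the other Anther libraries for the 3 genes, and it was the highest Anther library for 32 of the other 34 meiotic genes and for 41.3% of all genes tested. The median ratio was 2.44 for the 34 genes and 1.028 for all genes tested, while the tapetum markers had a median of 1.13. Among these markers, the TDF1 copies had ratios of 1.90, 2.07 and 2.06. The part of this library in the spread of Anther values was shown by leaving it out, as given for each of the 3 axis genes. Calls of the other 34 meiotic genes are given only with this library included.

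Genes whose pattern was most like that of each axis gene were ranked by Pearson's r on log2(FPKM + 0.1) over the 9 libraries, which fall into 3 tissues, so that r mostly measures the tissue means. For Bra004222 the nearest genes were Bol037066, BniB045745 and Bra001359 (r = 0.996, 0.995 and 0.995), and 262 genes reached an r of 0.98. For BniB009412 they were Bol043474, Bra009442 and Bra022395 (r = 0.999, 0.998 and 0.998), among 777 genes at that level. For BniB041399 they were Bol039456, Bol007924 and Bra035008 (r = 0.997, 0.995 and 0.995), among 320 genes. Bol007924 is the C-genome copy of PRD3, which is needed for double-strand breaks. No names for the others were used here, and with a pseudocount of 1 the nearest 3 genes shared 0, 1 and 0 genes with these lists. The size of a change does not enter r. For example, mean levels in Anther, Ovule and Leaf were 18.8, 5.27 and 3.04 FPKM for Bol037066. They were 31.6, 0.688 and 0.0760 FPKM for Bra004222.

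Among the copies of the meiotic genes, the axis genes had different nearest partners. Bra004222 was most like the ZYP1a copy Bra003654 (r = 0.994, rank 10 of 75037 genes). The ZYP1a copies Bol027500 and Bra035016 ranked 126 and 2109. BniB009412 was most like the SPO22 copy Bol043105 (r = 0.994, rank 50), and the other SPO22 copies ranked 382 and 539. ASY3 was most like the PRD3 copy Bol007924 (r = 0.995, rank 2) and the MTOPVIB copy BniB044390 (r = 0.994, rank 5). The other PRD3 copies ranked 2170 and 2318 for ASY3. All these ranks were taken with a pseudocount of 0.1 only, and they hold for single copies, not for a gene as a whole. MTOPVIB is a subunit of the complex that makes the breaks. The ASY1 copies had an r of 0.898 with each other, and ASY3 had an r of 0.951 with BniB009412 and 0.762 with Bra004222.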

How the data were processed

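FPKM values of 9 libraries were used as deposited by the authors. Their reads had been cleaned and mapped by HISAT2 2.1.0 to the B. rapa, B. nigra and B. oleracea genomes (whether joined in 1 index is not given in the sources used here), with HTSeq 0.6.0 for counting, and StringTie 1.3.2 is named in the submitters' processing notes without a role. Whole reads were recovered from the steps of the values, within 0.01 read for 99.99% of 100804 genes. The steps fix reads only up to a whole factor per gene, and the smallest that makes the gene length a multiple of 3 was taken (1 for each axis gene). Read counts, lengths and counting intervals rest on that choice. Subgenomes follow the identifier prefix (Bra, A; BniB, B; Bol, C).

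The limma package (3.58.1, R 4.3.3) was run on log2(FPKM + 0.1) with a trended prior and no replicate block. All 9 libraries entered 1 model, over 75038 genes reaching 0.5 FPKM in 3 or more libraries, and p-values were adjusted over these genes (Benjamini-Hochberg). Ratios within libraries were compared by two-sided exact permutation. Intervals of shares were exact binomial, scaled for length. Both the recovery of reads and the limma test were also run on simulated data, with no outcome given here. For limma all simulated libraries had the same spread, unlike the real ones. For the recovery, the simulated gene lengths were those of the recovery itself. These runs therefore test neither the unequal spread of the tissues nor the choice of factor. Python 3.11.15 with numpy 2.4.6, pandas 2.3.3, scipy 1.17.1 and matplotlib 3.10.9 was used for the rest.

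The named genes are the 3 axis genes, the ZYP1a copies, the meiotic genes with 1 A- and 1 B-genome copy, and the 3 genes most like each axis gene. The others appear as counts, with some exceptions that were named after their values were seen. These are the RECQ4A, SPO11-1 and TDF1 copies, an RMI1 copy, a C-genome FANCM copy and the meiotic genes nearest in pattern. Ranks of further copies of the genes nearest in pattern were likewise added after their values were seen. The members and lists were chosen with earlier results of these data known. Alternatives were pseudocounts of 1 and 0.01, other filters, rescaling, 2 tissues at a time, a replicate block, limma voom on recovered reads, leaving out each library and, chosen after seeing the data, Leaf averaged to 1 sample.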

Additional observations from a re-analysis of the deposited data

Results flagged for a closer look

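The order of the ASY1 copies in Anther was opposite to that in Ovule and in Leaf. Bra004222 was above BniB009412 in 3 of 3 Anther libraries and below it in 3 of 3 Ovule libraries, and the A-genome share was 45.7 percentage points higher in Anther. In Anther replicate 1 the order rested on 422 and 419 reads, within counting error of an equal share. Bra004222 was also below BniB009412 in 3 of 3 Leaf libraries, with a share 38.3 points higher in Anther than in Leaf, where 21 reads were counted in all. For each pair the two-sided exact permutation test of the share gave p = 0.1, the smallest p possible, and 0.15 after adjustment over 6 comparisons.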

How the results depend on the processing

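For Bra004222 and BniB009412 in Anther over Ovule, the call held under each alternative, with log2 differences of 4.06 to 5.51 and 1.29 to 1.99. With only Anther and Ovule in the model, so without the spread of Leaf, their adjusted p was 0.00048 and 0.011 from limma. ASY3 was called under no alternative (adjusted p = 0.37 to 0.85 from limma), and its log2 difference was -0.32 to 0.56 with single libraries left out. The untested difference of Bra004222 in Ovule over Leaf was 2.27 ± 0.50 (standard error), and 0.65 ± 0.37 with a pseudocount of 1 and 2.45 ± 1.83 with voom on recovered reads, with 4 Leaf reads in all. The cause was not tested. The Ovule share of the A-genome ASY1 copy minus the Leaf share was -15.9 to 1.06 points with single libraries left out, positive only without Leaf replicate 1. The log2 ratio of ASY3 to ASY1, Ovule minus Leaf, was -0.0030 with a pseudocount of 0.1 on both values and 0.11 to 1.27 with single libraries left out. With Bra004222 alone as partner, the ratio differed by -5.13 between Anther and Ovule, and with BniB009412 alone by -1.57, and by -1.05 between Anther and Leaf. The ratio to Bra004222 alone could not be computed against Leaf, where replicate 3 was at 0. Rescaling by median-of-ratios factors set the median over all genes at 0.075 for Ovule over Leaf, in place of 0.66, with 49.4% in place of 71.4% of calls toward Ovule, and at 0.18 for Anther over Leaf, with 54.3% in place of 69.4% toward Anther. For Anther over Ovule it was 0.021 in place of -0.11, and the axis genes then differed by 5.22, 1.86 and 0.31. Replicate numbers are shared between tissues, but deviations of same-numbered libraries did not move together (r = -0.095, -0.020 and 0.16 for Anther and Ovule). With a replicate block, 21261 genes differed between Anther and Ovule, against 21448 without it, and no call on the axis genes changed (for example, 5.11 with adjusted p = 0.00023 from limma for Bra004222). With 1 library left out, 26 of 27 log2 differences of Anther over Ovule for the axis genes kept their direction and call. This count includes fits without a Leaf library, which cannot move the difference, only its standard error and p. For ASY3, what was kept is the lack of a call.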

Other observations

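ASY1 and ZYP1a, the axis and central components of the paired chromosomes, differed less in their proportion between the reproductive tissues than ASY1 and ASY3 did, without a test of that difference. The ZYP1a copies summed to 22.8, 66.3 and 26.6 FPKM in Anther and to 3.40, 4.56 and 3.65 FPKM in Ovule. Summed ASY1 was 1.33, 1.46 and 1.503 times the ZYP1a sum in Anther, and 2.04, 1.82 and 1.81 times in Ovule. The libraries of the tissues did not overlap. The copies differ in subgenome, with A and B for ASY1, A and C for ZYP1a and B for ASY3. The part of this in the proportions was not tested.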
